A study of Arabidopsis thaliana with 30 samples.

Results

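Messenger RNA levels were followed for 9 genes of ethylene synthesis and early ethylene response in Arabidopsis thaliana roots, taken by locus identifier from the 32753 genes of the expression table. They are the 1-aminocyclopropane-1-carboxylate (ACC) synthase genes ACS2 (AT1G01480), ACS6 (AT4G11280), ACS7 (AT4G26200), ACS8 (AT4G37770) and ACS11 (AT4G08040), the ACC oxidase genes ACO1 (AT2G19590) and ACO4 (AT1G05010), and the transcription factor genes ERF5 (AT5G47230) and ERF6 (AT4G17490). The study asked how roots answer the peptide RGF1, which is sensed by RGI receptor kinases with the co-receptor BAK1, and how they answer when an engineered RGI and an engineered BAK1 are joined by the small molecule rapamycin. In all, 30 libraries fell into 10 groups of 3, in 3 sets, each with its own mock-treated wild type. All plants were Col-0 or carried their transgenes in Col-0, were 7 days old, and were treated for 4 h before root RNA was extracted. In the RGF1 set wild type was given mock or 100 nM RGF1. In the RGI1 set, wild type and the RiD-RGI1/BAK1 line (called the RGI1 line) were each given mock or 1 µM rapamycin. In the RGI5 set, wild type and the RiD-RGI5/BAK1 line (called the RGI5 line) were each given mock or 100 nM rapamycin. Each line was also its own genotype under mock, so a line can differ from wild type before any rapamycin is given. Mock in the sets with rapamycin is named DMSO in the titles. The labels do not give the promoters of the transgenes or how many independent lines were used.

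Ethylene is a gaseous plant hormone that restrains root elongation and promotes root hair growth. It is made from S-adenosylmethionine, which ACC synthases turn into ACC, usually the limiting step, and ACC oxidases turn ACC into ethylene. ACS2 and ACS6 proteins are stabilised by the MAP kinases MPK3 and MPK6 after pathogen signals, whereas ACS8 and ACS11 are other members of the synthase family and ACS7 has a short carboxyl end without the usual regulatory sites. The gas is sensed by receptors such as ETR1, whose signal passes through EIN2 and EIN3 to genes of the ERF family. ERF5 and ERF6 are closely related activators of group IX of that family, and ERF6 is a substrate of MPK3 and MPK6 that takes part in defence and in growth restraint under stress.

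The values were TPM (a share of all transcripts in a library, corrected for transcript length), summed over the transcript models of a gene. Levels of different genes can be compared in this unit, but it keeps no read depth, and the depth is unknown. Per library, 18999 to 19331 genes stood at or over 1 TPM. The share held by AT1G15405 alone ran from 3.95% to 11.9%. Whether replicates were separate plantings is not stated, and the p-values cover only the spread among these libraries, which may be technical. In whole roots, fewer cells that express a gene and less RNA per cell cannot be told apart. The engineered receptor gene stood at 204.2 ± 4.7 TPM in the mock-treated RGI1 line against 31.7 ± 1.54 TPM in wild type for RGI1 (AT3G24240), and at 47.0 ± 1.48 against 2.85 ± 0.521 TPM for RGI5 (AT1G34110) (mean ± SD, n = 3), as the labels say. Root tissue markers summed to between 9875 and 12701 TPM in every library, against 19.3 to 95.1 TPM for 10 genes of green shoot tissue.

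The 2 oxidase messages followed here and ERF5 were well expressed and most synthase messages were scarce. Among genes with a mean above 0, ACO1 lay at the 88.0th percentile of mean level and ACS8 at the 22.8th. ACO1 had a mean of 44.9 TPM over the 30 libraries and ACO4 of 32.8 TPM. The 8 other synthase and oxidase genes that were read summed to 283.5 to 447.0 TPM per library. ACO1 and ACO4 are therefore not shown to be the main oxidase messages. ACS6 was the main synthase message, at a mean of 17.8 TPM with a range of 12.7 to 27.1 TPM. It made up 65.9% to 84.2% of the TPM of the 9 ACC synthase genes that were read (median 73.3%). The other synthases among the genes followed here stood near or under 1 TPM. Their means were 1.31 TPM for ACS11, 1.25 TPM for ACS2, 0.81 TPM for ACS7 and 0.148 TPM for ACS8, which was listed at 0 in 1 library. Of the synthases outside the genes followed here, ACS5 had a mean of 1.71 TPM and a median share of 7.39%, above ACS11. ACS9 had a mean of 0.852 TPM and reached 3.2 TPM, and ACS1 and ACS4 were listed at 0 in all 30 libraries. ERF5 had a mean of 26.6 TPM and ERF6 of 11.9 TPM. ACS2 had 2 transcript models, of which the first held 92.5% of its TPM, and each other gene had 1.

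**Figure D1:**
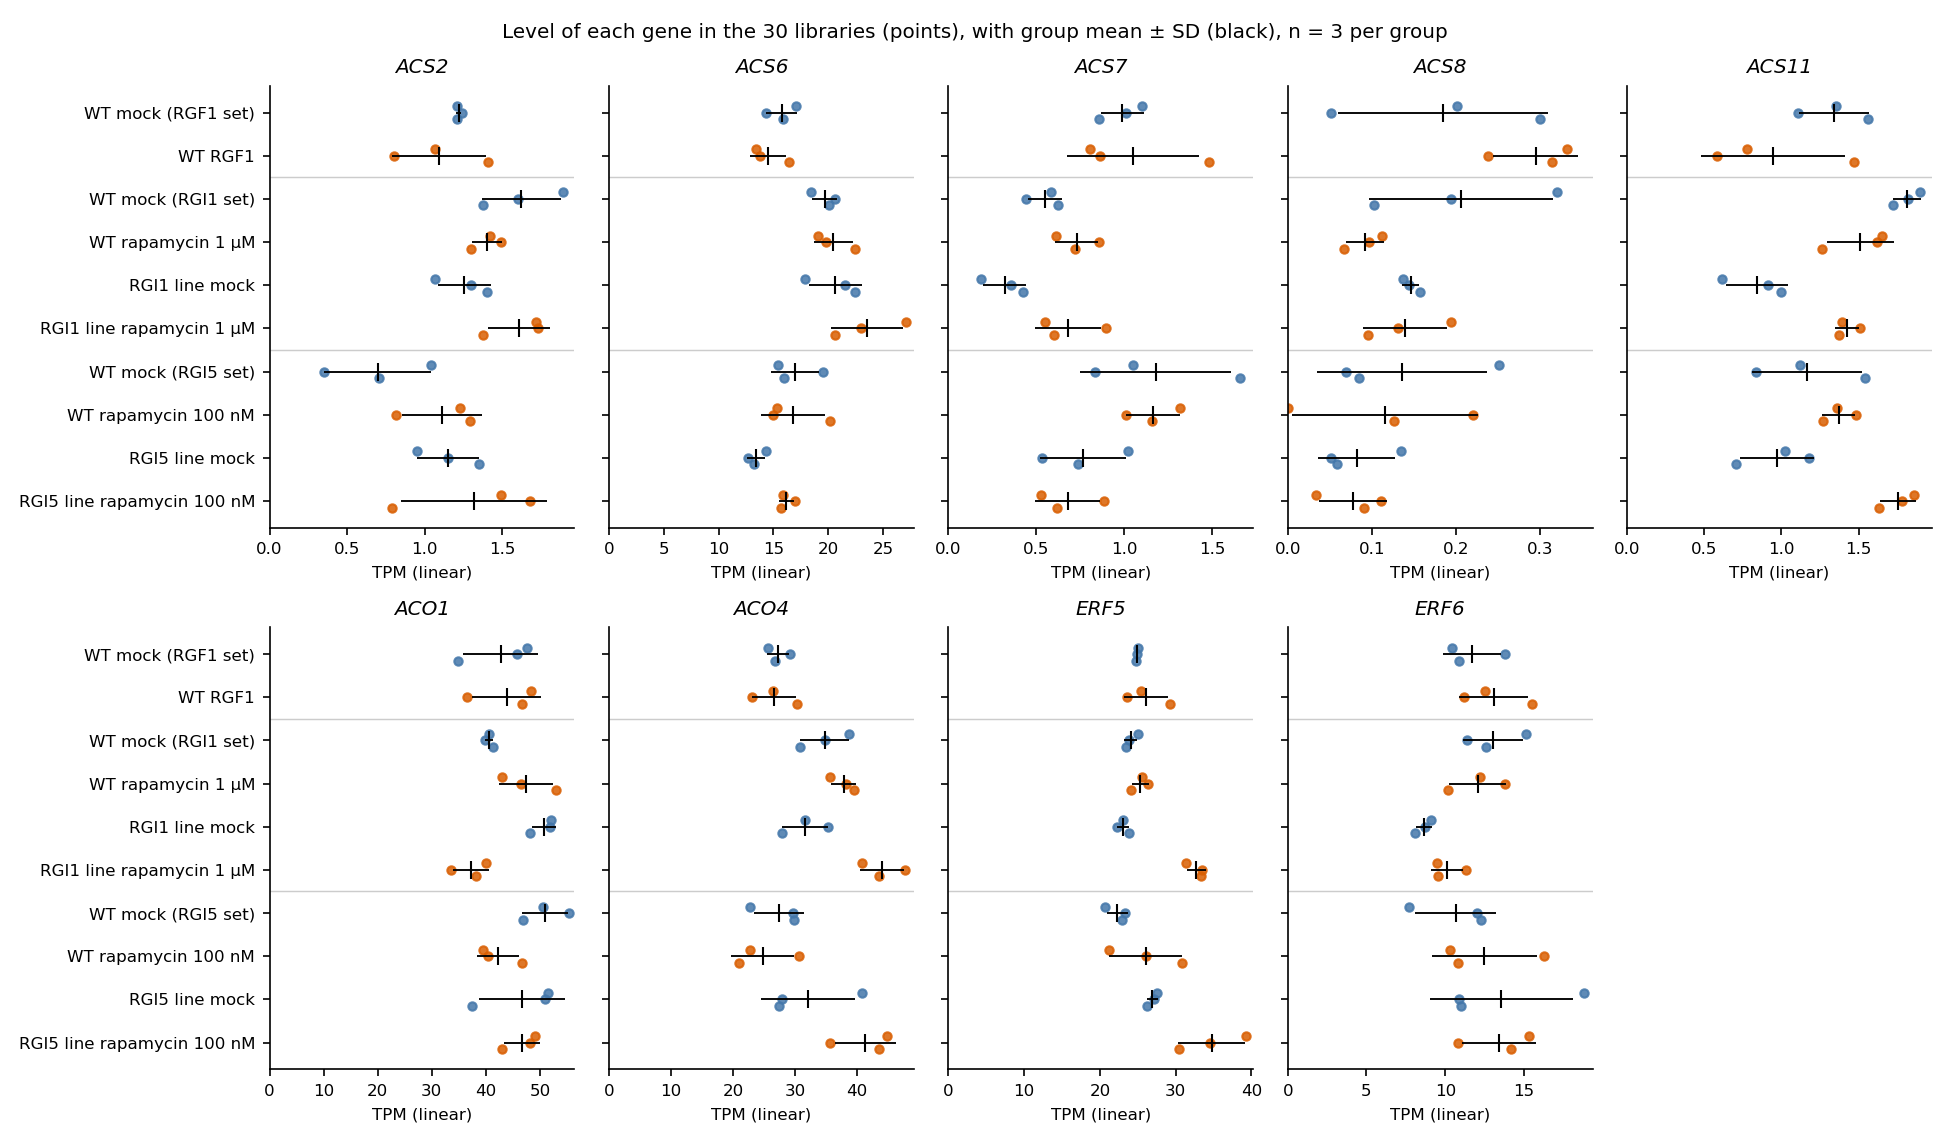
Level of each of the 9 genes in TPM (linear axis from 0) in each group of 3 libraries, with points for libraries (blue for mock, orange for treated) and black marks for mean ± SD. ERF5 stands highest in the RGI1 and RGI5 lines given rapamycin, at 31.3 to 33.5 TPM and 30.4 to 39.3 TPM, above the other 8 groups except for a single wild-type library at 30.8 TPM.

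Ranked by group mean, neighbouring groups mostly overlapped. The exceptions were 1 of the 9 neighbouring pairs each for ERF5, ERF6 and ACS7, and 0 of 9 for the other 6 genes. This ranking was not made over all genes, so how common such a step is among them is not known. For ERF5 the step lay between the mock-treated RGI5 line (mean 26.9 TPM) and the RGI1 line with rapamycin (32.7 TPM). The RGI5 line with rapamycin came above that, at 34.7 TPM, and the 8 groups below the step had means from 22.3 to 26.9 TPM. For ERF6 the step lay between the 2 lowest groups, the RGI1 line in mock (8.64 TPM) and with rapamycin (10.1 TPM). A mock wild-type library of the RGI5 set, at 7.7 TPM, still lay below every mock library of the RGI1 line. The highest mean of ERF6 was 13.6 TPM in the mock-treated RGI5 line. ACO4 had its highest means in both rapamycin-treated lines, at 44.0 TPM for RGI1 and 41.4 TPM for RGI5, while ACO1 had its lowest mean in the RGI1 line with rapamycin (37.3 TPM) and its highest in the mock wild type of the RGI5 set (50.9 TPM). The lowest and highest group means differed by 1.36-fold for ACO1, against 1.77-fold for ACO4 and 1.56-fold for ERF5.

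Rapamycin in the RGI1 line moved 3 of the 9 genes: ERF5 and ACO4 rose and ACO1 fell. Of the 9, 7 passed the filter on low values (1 TPM in at least 3 libraries of the set). ACS7 and ACS8 did not. A gene was called when its adjusted p in limma, which fits all tested genes together on log2(TPM + 1) and adjusts by Benjamini-Hochberg over all of them, lay under 0.05. In this comparison 4.05% of 19634 genes were called, 2.56% higher and 1.49% lower. The split of all calls was 503 higher and 293 lower, and 383 and 365 after median-ratio scaling. On the log2 scale 6 of the 7 stood above mock, with a median of 0.21, where 61.1% of all genes stood above mock with a median of 0.029.

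ERF5, a transcriptional activator of stress and defence genes, was at 23.8, 22.3 and 23.1 TPM in the mock-treated RGI1 line and at 33.4, 33.5 and 31.3 TPM with rapamycin. The groups did not overlap, and the lowest treated library lay well above the highest mock library. The mean went from 23.1 ± 0.729 to 32.7 ± 1.23 TPM, a log2 fold change of 0.49 (SE 0.051, limma adjusted p = 0.000253, n = 3 per group). This call held under each alternative setting and without each library (highest adjusted p 0.00619). A log2 fold change here is a difference of mean log2(TPM + 1), which understates the change of weakly expressed genes.

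ACO4, also known as the ethylene-forming enzyme, was at 27.9, 35.4 and 31.6 TPM in mock and at 43.5, 47.8 and 40.8 TPM with rapamycin. Again every treated library stood above every mock library, although the mock libraries spread more widely than those of ERF5. The mean went from 31.6 ± 3.71 to 44.0 ± 3.53 TPM (log2 fold change 0.47, SE 0.095, limma adjusted p = 0.0153). Settings that lost the call included leaving out mock replicate 1 (adjusted p = 0.0605), mock replicate 4 (0.0566) or rapamycin replicate 2 (0.0614), and fitting all 30 libraries together (0.119). Over all alternatives its log2 fold change ran from 0.39 to 0.55 and its adjusted p from 0.0143 to 0.119.

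ACO1, an oxidase of the same family, moved the other way, from 48.2, 51.9 and 52.1 TPM in mock to 38.2, 33.6 and 40.1 TPM with rapamycin. No treated library reached the lowest mock library. The mean went from 50.7 ± 2.17 to 37.3 ± 3.33 TPM (log2 fold change -0.44, SE 0.076, limma adjusted p = 0.00698). The call held without each library and was lost in the fit of all 30 libraries (0.0672, range over the alternatives 0.00696 to 0.0672).

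ACS11, a weakly expressed synthase, was at 0.995, 0.913 and 0.612 TPM in mock and at 1.37, 1.51 and 1.39 TPM with rapamycin. The groups did not overlap, but the change did not pass the test (log2 fold change 0.40, SE 0.11, limma adjusted p = 0.0689, between 0.045 and 0.247 over the alternatives). ERF6 was at 8.1, 8.72 and 9.09 TPM and then at 9.57, 11.3 and 9.49 TPM, without overlap and without a call. ACS7, which was not tested, was at 0.424, 0.354 and 0.183 TPM in mock and at 0.598, 0.897 and 0.552 TPM with rapamycin. Treated and mock libraries did not overlap in 5 of the 7 tested genes, beside 19.9% of all genes tested. ACS6, the main synthase message, overlapped between groups (17.9 to 22.5 TPM in mock, 20.6 to 27.1 TPM with rapamycin), as did ACS2, and neither was called.

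**Figure D2:**
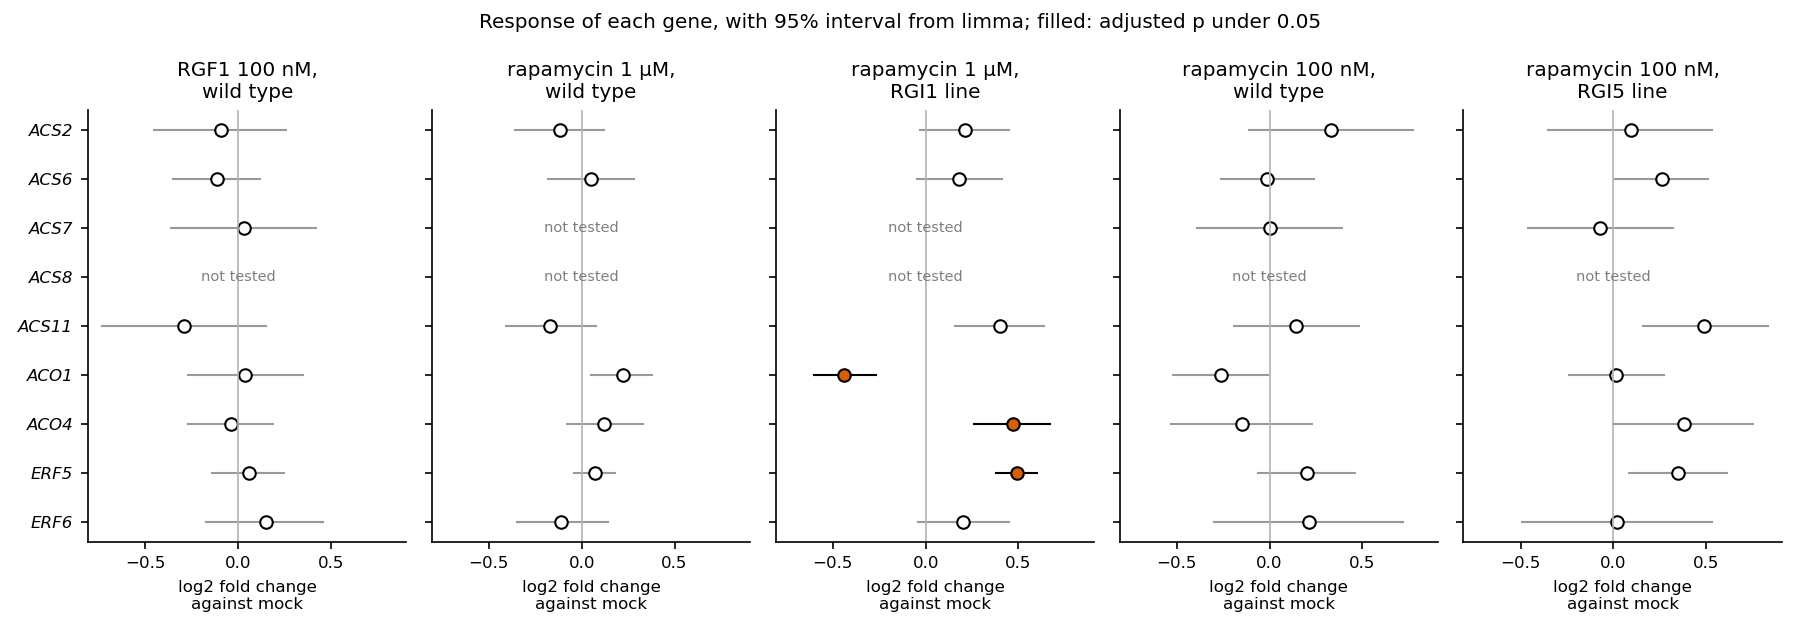
Response of each gene to its treatment as a log2 fold change against mock (horizontal axis) with the 95% interval from limma, in 5 panels for RGF1, for rapamycin in each wild type and for rapamycin in each line. Filled points passed an adjusted p of 0.05: ACO1, ACO4 and ERF5 in the RGI1 line only, at -0.44, 0.47 and 0.49.

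Wild-type roots given the same dose carried no engineered receptor. Among them limma called none of the 7 tested genes after 1 µM rapamycin, beside 0% of all 19634 genes, although 1 of the 7 and 1290 of all genes stood under 0.05 before adjustment. This was ACO1, at 41.3, 39.9 and 40.5 TPM in mock and at 52.9, 46.5 and 43.0 TPM with rapamycin (log2 fold change 0.22, adjusted p = 0.732). With ACS11, which stood lower, it made 2 of the 7 genes without overlap, beside 11.3% of all genes. ACO1 thus stood higher with rapamycin in every wild-type library, opposite to the RGI1 line. ERF5 stood at 23.4, 23.8 and 25.0 TPM in mock and at 24.1, 26.3 and 25.6 TPM with rapamycin, and these groups overlapped (log2 fold change 0.071, adjusted p = 0.888). ACO4 overlapped too, at 30.8 to 38.7 TPM and 35.7 to 39.6 TPM.

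The difference between the response of the RGI1 line and that of its wild type was tested directly, as an interaction in the same fit. Of the 7 genes tested, ERF5 was called higher and ACO1 lower, where 1.25% of 19634 genes were called, 0.82% higher and 0.428% lower (161 and 84 genes, and 121 and 105 after median-ratio scaling). For ERF5 the difference of responses was 0.42 on the log2 scale (SE 0.072, limma adjusted p = 0.0152). For ACO1 it was -0.65 (SE 0.11, adjusted p = 0.0123). Neither call held under each setting. ERF5 missed the threshold without mock replicate 3 of the RGI1 line (adjusted p = 0.0527). With all 30 libraries fitted together ERF5 stood at 0.299 and ACO1 at 0.144. The adjusted p over the alternatives ran from 0.016 to 0.299 for ERF5 and from 0.0103 to 0.144 for ACO1, and the 2 differences kept their signs. ACO4 (0.34, SE 0.13, adjusted p = 0.322) and ACS11 (0.57, SE 0.16, adjusted p = 0.121) did not pass the test, so that the rise of ACO4 in the line was not shown to differ from wild type.

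**Figure D3:**
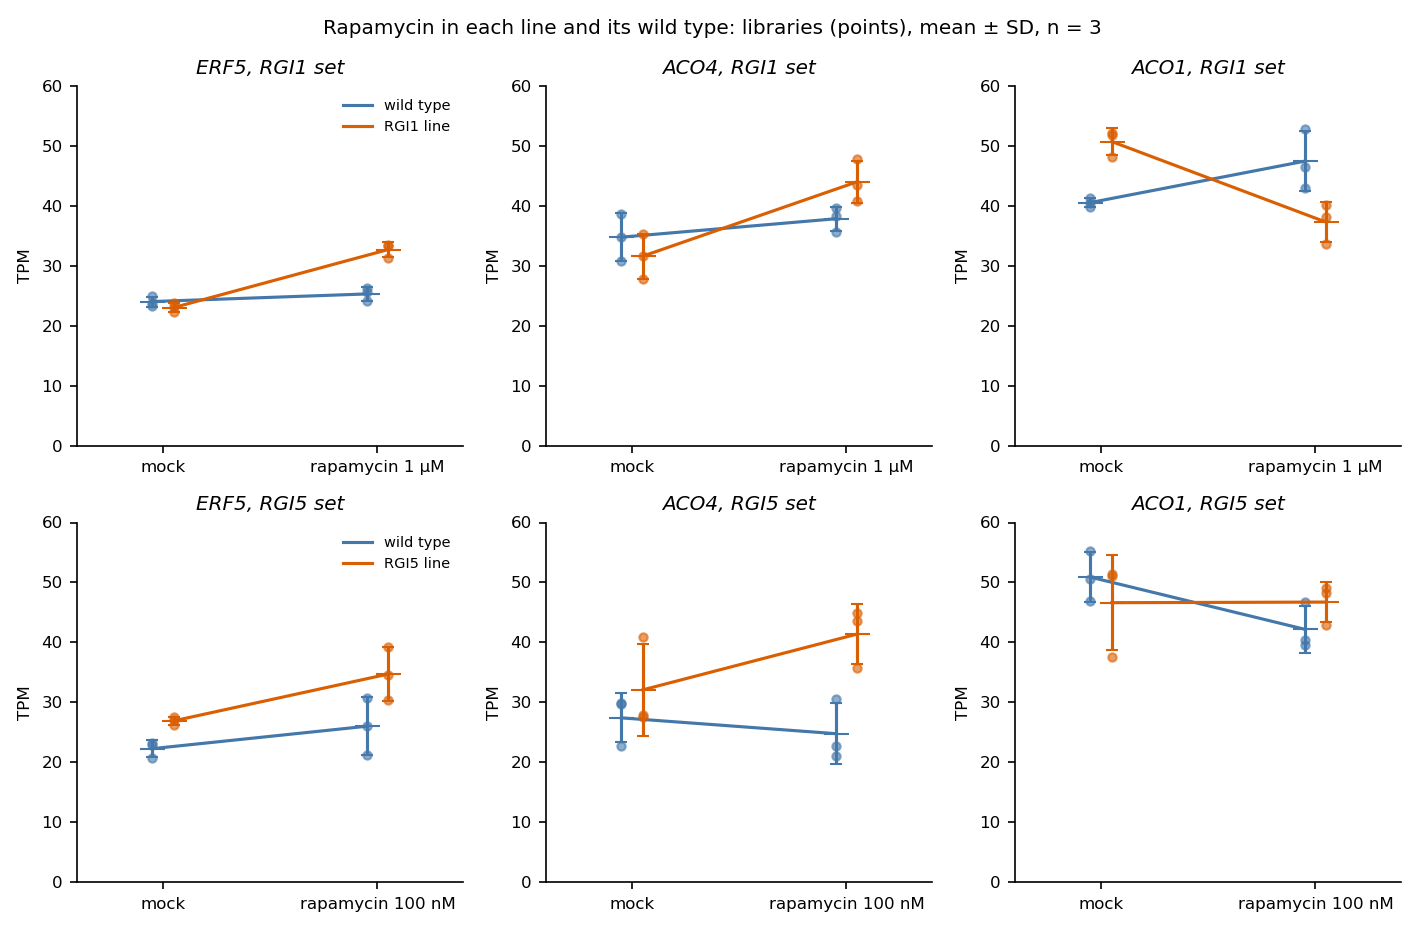
Levels of ERF5, ACO4 and ACO1 in TPM (axis from 0) in mock and rapamycin, for wild type (blue) and the engineered line (orange), with the RGI1 set above and the RGI5 set below. Points are libraries and bars are mean ± SD of 3, and ACO1 falls from 50.7 to 37.3 TPM in the RGI1 line while wild type goes from 40.6 to 47.5 TPM.

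The RGI1 line already differed from wild type under mock. Under mock ACO1 was higher in the line and ACS11 and ERF6 were lower, where 2% of 19634 genes were called higher and 14.5% lower. ACO1 stood at 50.7 ± 2.17 TPM in the line and 40.6 ± 0.734 TPM in wild type. The log2 difference was 0.31 (SE 0.076, limma adjusted p = 0.0168). This call was lost without wild-type mock replicate 2 (adjusted p = 0.0596), without line mock replicate 3 (0.0621) and with all 30 libraries fitted together (0.0952), with a range of 0.0122 to 0.0952 over the alternatives. ACS11 stood at 1.72, 1.82 and 1.9 TPM in wild type and at 0.84 ± 0.202 TPM in the line (-0.62, SE 0.11, adjusted p = 0.0038), a call that held under each setting and without each library. ERF6 was at 12.6, 11.4 and 15.1 TPM in wild type against 8.64 ± 0.502 TPM in the line (-0.54, SE 0.11, adjusted p = 0.00864, and 0.0743 in the fit of all 30 libraries, range 0.00825 to 0.0743). With 3 of 7 genes called against 16.5% of all genes, 2846 of the 3239 calls being lower, the scaling matters: after median-ratio scaling 690 genes were higher and 1022 lower, and ACO1, ACS11 and ERF6 were still called. Line and wild type did not overlap in these 3 of the 7 genes, beside 39.4% of all genes. ERF5 and ACO4 overlapped between the line and wild type under mock, at 22.3 to 23.8 against 23.4 to 25.0 TPM and at 27.9 to 35.4 against 30.8 to 38.7 TPM.

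In the same comparison 3 of the 5 tested green shoot markers were higher in the line, RBCS1A, CAB1 and LHCA1, of which LHCA1 kept its call in 1 of 6 fits with a library dropped. The summed level of all 10 green shoot markers was 29.2 to 35.7 TPM in wild type and 55.8 to 70.2 TPM in the line. Of the 7 root markers PLT1 was lower (log2 fold change -0.27, adjusted p = 0.0288, and 0.119 after median-ratio scaling), and AT1G15405 took 7.0% of the wild-type libraries and 10.9% of the line libraries on average. The part of these differences in the levels of ACO1, ACS11 and ERF6 was not tested.

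With rapamycin in both genotypes, ERF5 was higher and ACO1 lower in the RGI1 line than in wild type, where 8.05% of genes were called, 1.89% higher and 6.15% lower (372 and 1208 genes, and 634 and 799 after median-ratio scaling). ERF5 stood at 32.7 ± 1.23 against 25.4 ± 1.1 TPM (log2 fold change 0.36, SE 0.051, limma adjusted p = 0.00105), a call that held under each setting and without each library. ACO1 stood at 37.3 ± 3.33 against 47.5 ± 5.01 TPM (-0.34, SE 0.076, adjusted p = 0.0175) and lost its call after median-ratio scaling (0.0746) and in the fit of all 30 libraries (0.12), with a range of 0.0113 to 0.12. ACS11, lower in the line under mock, was at 1.42 ± 0.0733 against 1.51 ± 0.215 TPM with rapamycin and was not called. ACO4 had treated line libraries (40.8 to 47.8 TPM) above those of wild type (35.7 to 39.6 TPM) without passing the test (0.21, adjusted p = 0.203). These 3 of the 7 genes had no overlap, beside 25.3% of all genes.

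In the RGI5 line none of the 8 tested genes was called after 100 nM rapamycin in limma, nor was any other gene (0% of 19652). An unadjusted p under 0.05 was reached by 3 of the 8 and by 2174 of all genes. ERF5 was at 26.2, 27.1 and 27.5 TPM in mock and at 30.4, 34.5 and 39.3 TPM with rapamycin (log2 fold change 0.35, SE 0.12, adjusted p = 0.352). The groups did not overlap, and the treated libraries had an SD of 4.46 TPM against 0.695 TPM in mock. ACS11 was at 0.708, 1.18 and 1.02 TPM in mock and at 1.63, 1.78 and 1.86 TPM with rapamycin (0.49, SE 0.15, adjusted p = 0.328). ACS6 was at 13.2, 12.7 and 14.3 TPM and then at 15.7, 17.0 and 15.9 TPM (0.26, SE 0.11, adjusted p = 0.44). Treated and mock libraries did not overlap in these 3 of the 8 genes, beside 18.4% of all genes tested. ACO4 was at 27.5, 27.9 and 40.9 TPM in mock and at 43.6, 35.7 and 44.9 TPM with rapamycin, the mock libraries holding 1 high value (0.38, SE 0.17, adjusted p = 0.451). ACO1, which fell in the RGI1 line, was at 37.5, 51.0 and 51.4 TPM and at 42.9, 48.2 and 49.1 TPM here, with overlapping groups. In this comparison 7 of the 8 genes stood above mock with a median of 0.18, beside 69% of all genes with a median of 0.064.

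Wild type given 100 nM rapamycin had 0 of 8 genes called in limma, beside 0.00509% of 19652 genes (a single gene). Before adjustment 1 of the 8 stood under 0.05. That was ACO1, also the 1 gene of the 8 without overlap (12.1% of all genes), at 46.9, 55.3 and 50.5 TPM in mock and at 46.7, 40.4 and 39.5 TPM with rapamycin (log2 fold change -0.26, SE 0.12, adjusted p = 0.647). Wild-type ACO1 therefore stood lower at 100 nM and higher at 1 µM, neither with a call, and the doses belong to different sets. ERF5 ranged from 20.7 to 23.3 TPM in mock and from 21.2 to 30.8 TPM with rapamycin. The difference between the RGI5 line and its wild type in this response was not called for any of the 8 genes (0% of 19652 genes, 0 of 8 at an unadjusted p under 0.05). For ACO4 it was 0.52 with a 95% interval of -0.011 to 1.06. For ERF5 it was 0.15 with an interval of -0.22 to 0.52, which holds both 0 and the 0.42 of the RGI1 set.

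The RGI5 line under mock had 0 of 8 genes called against wild type (0.438% of all genes), with 2 under 0.05 before adjustment. ACS6 was at 13.2, 12.7 and 14.3 TPM in the line and 16.0, 19.5 and 15.4 TPM in wild type (log2 fold change -0.31, adjusted p = 0.247), and ERF5 at 26.2 to 27.5 against 20.7 to 23.3 TPM (0.26, adjusted p = 0.357). These 2 of the 8 did not overlap, beside 20.6% of all genes. With rapamycin in both genotypes 0 of 8 were called (0.112% of all genes), while 2 stood under 0.05 before adjustment. ACO4 was at 43.6, 35.7 and 44.9 TPM in the line and at 21.0, 30.6 and 22.8 TPM in wild type, without overlap (0.73, SE 0.17, adjusted p = 0.115). ERF5 was at 30.4 to 39.3 against 21.2 to 30.8 TPM (0.41, SE 0.12, adjusted p = 0.167). ACO4 was 1 of 3 of the 8 genes without overlap, the others being ACS7 and ACS11, beside 17.5% of all genes. ACO4 and ERF5 passed in the fit of all 30 libraries, with an adjusted p of 0.00811 for ACO4 and 0.0187 for ERF5, where 663 genes were called in place of 22.

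The peptide RGF1 in wild type called none of the 8 tested genes in limma (0.14% of 19274 genes), nor did any of the 8 stand under 0.05 before adjustment. ERF5 was at 24.8, 24.9 and 25.0 TPM in mock and, with the peptide, at 29.3, 23.6 and 25.4 TPM, the mock libraries lying close together and the treated ones on both sides of them (log2 fold change 0.06, 95% interval -0.14 to 0.25). ACO1 ran from 34.8 to 47.6 TPM in mock and from 36.6 to 48.4 TPM with RGF1. ACO4 ran from 25.7 to 29.2 TPM and from 23.1 to 30.3 TPM. Over the 8 genes the log2 fold changes lay between -0.29 and 0.15. The groups overlapped in all 8, beside 15.6% of all genes that did not.

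The response of the RGI1 line was then set against that of the peptide, in a fit of all 30 libraries. None of 8 genes was called in limma (0.408% of 20113 genes), while 4 of the 8 stood under 0.05 before adjustment: ACS11 (log2 difference of responses 0.69, SE 0.20, adjusted p = 0.118), ERF5 (0.43, SE 0.13, adjusted p = 0.15), ACO1 (-0.48, SE 0.17, adjusted p = 0.23) and ACO4 (0.51, SE 0.21, adjusted p = 0.29). ACS11 passed without RGF1 replicate 2 (0.0372, range over the alternatives 0.0372 to 0.428). Between the responses of the RGI5 and RGI1 lines none of 8 was called (0.0199% of 20113 genes), and ACO1 alone stood under 0.05 before adjustment (0.45, SE 0.17, adjusted p = 0.426). For ERF5 the difference between the lines was -0.14 with a 95% interval of -0.42 to 0.14, and for ACO4 -0.093 with an interval of -0.52 to 0.33. The lines were given different doses of rapamycin, so line and dose cannot be told apart.

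Other genes of the pathway were read from lists by role, and the RGI1 line response, in which 4.05% of all genes were called, had no call in most of the lists of synthesis and signalling. Of the 13 genes that make S-adenosylmethionine and recycle methionine 12 were tested and none was called, and the same held for all 6 genes of ACC synthase turnover and its kinases, MPK3 and MPK6 among them. Of 16 receptors and signalling genes none was called and 10 stood below mock. Of the other 8 synthase and oxidase genes 6 were tested and 1 fell, ACS9, from 2.12 ± 0.524 to 0.512 ± 0.204 TPM (-1.04, SE 0.24, adjusted p = 0.0284). ACS9 and ACS5 are near-identical, so the division of their reads is uncertain. Their summed level was 3.49, 3.49 and 3.97 TPM in mock and 1.46, 2.15 and 1.44 TPM with rapamycin, without overlap, while ACS5 alone ranged from 1.31 to 1.88 and from 0.934 to 1.43 TPM. Leaving out each library in turn, ACS9 kept its call in 2 of 6 fits (0.127 at most, when mock replicate 4 was dropped) and lost it with no filter on low values (0.0694). Its level also differed between sets. In mock wild type ACS9 was at 1.77 to 3.01 TPM in the RGI1 set, 0.049 to 0.329 TPM in the RGF1 set and 0 to 0.219 TPM in the RGI5 set.

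Among 12 genes that ethylene controls, 11 were tested and 1 fell, RAV1, a transcription factor of the EDF group, from 51.4 ± 2.47 to 37.0 ± 4.99 TPM (log2 fold change -0.47, SE 0.08, limma adjusted p = 0.00558). Of the 13 other group IX ERF genes 10 were tested and 2 fell, while ERF5 rose. In this response 1.49% of all genes were called lower and 2.56% higher. AT5G07580 went from 29.1 ± 2.23 to 19.0 ± 1.75 TPM (-0.59, SE 0.11, adjusted p = 0.00845) and AT5G61590 from 42.6 ± 4.06 to 26.5 ± 8.55 TPM (-0.71, SE 0.16, adjusted p = 0.0267). The list had 3 genes above and 7 below mock, with a median of -0.24, where 61.1% of all genes stood above mock. Of 5 genes reported as ERF6 targets, WRKY33, a regulator of camalexin synthesis, went up from 10.5 ± 0.388 to 14.2 ± 1.24 TPM (0.39, SE 0.08, adjusted p = 0.0153), while ERF11, a repressor, fell from 9.47 ± 0.367 to 6.14 ± 0.869 TPM (-0.56, SE 0.12, adjusted p = 0.0218). The separate list of ERF repressors, which does not hold ERF11 (5 of 7 tested), and the touch and wound genes (8 of 10 tested) had no call. RAV1 held its call under each setting and without each library, and AT5G07580 without each library. With a library dropped, AT5G61590 and WRKY33 kept their calls in 2 of 6 fits (adjusted p at most 0.107 and 0.0642, when mock replicate 4 and mock replicate 3 were dropped). ERF11 kept its call in 1 of 6 (at most 0.0848, mock replicate 3). With all 30 libraries fitted together AT5G61590, WRKY33 and ERF11 lost their calls as well, at 0.172, 0.299 and 0.121. In the difference between line and wild-type responses RAV1 (-0.54, adjusted p = 0.0391) and AT5G07580 (-0.79, adjusted p = 0.0266) were called lower, beside 0.428% of all genes. RAV1 kept its call in 2 and AT5G07580 in 8 of the 12 fits without a library. Among those fits the highest adjusted p came without mock replicate 3 of the line, at 0.106 for RAV1 and 0.0734 for AT5G07580. Other settings lost both calls too, with RAV1 at 0.234 in the fit of all 30 libraries. AT5G07580 stood at 0.124 with replicate numbers as a block.

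**Figure D4:**
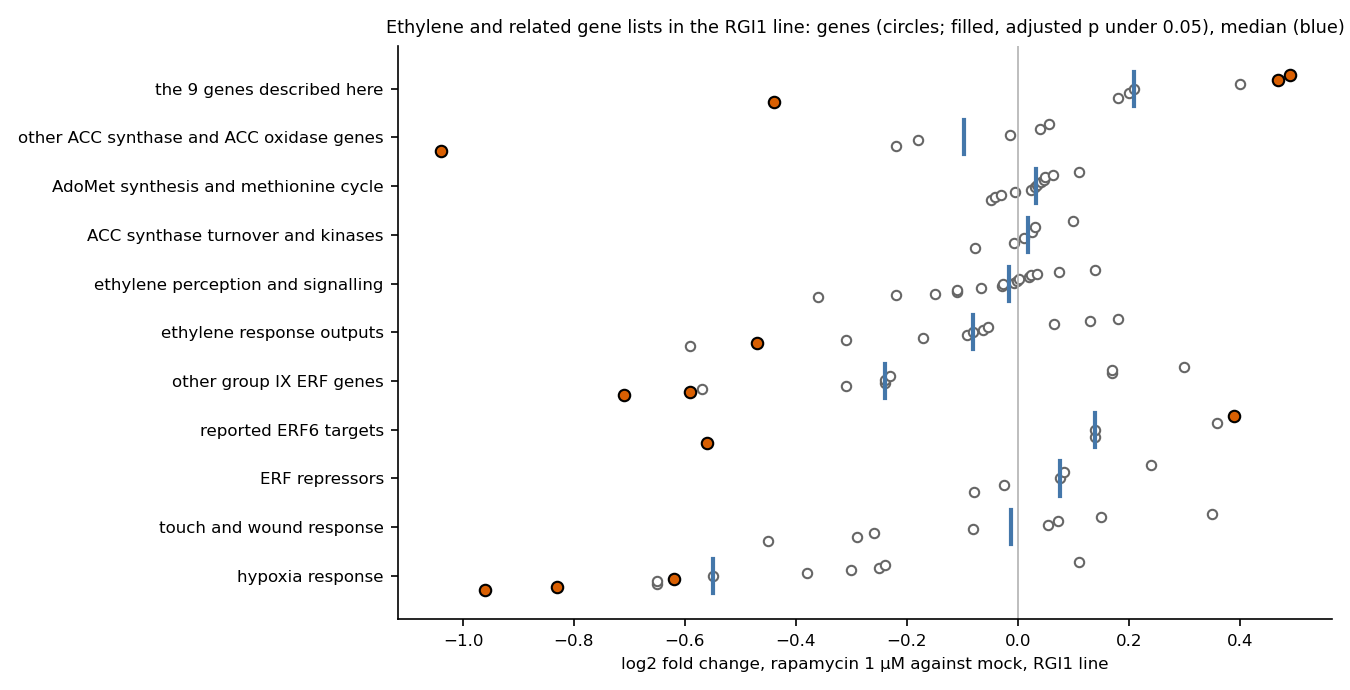
Log2 fold change of each tested gene (circles, filled where the adjusted p was under 0.05) with rapamycin against mock in the RGI1 line, by list, with list medians in blue. The 9 genes described here hold calls on both sides of 0, at 0.47, 0.49 and -0.44, and most hypoxia genes lie below 0 (median -0.55).

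Genes induced by low oxygen were read beside ACO1, which is itself known as one of them. Of 12 hypoxia genes 11 were tested in the RGI1 line response. Of the 11, 10 stood below mock, whereas 61.1% of all genes stood above it, and 3 fell, beside 1.49% of all genes: ERF73, ADH1 and SUS4, with log2 fold changes of -0.96, -0.83 and -0.62 (limma adjusted p = 7.9e-05, 0.0384 and 0.0433). ERF73 kept its call without each library, ADH1 in 1 and SUS4 in 2 of the 6 fits (0.137 and 0.169 at most, both when mock replicate 4 was dropped). With all 30 libraries fitted together ADH1 and SUS4 lost their calls as well, at 0.14 and 0.188. The summed hypoxia level was 226.1 to 268.5 TPM in mock and 156.5 to 199.9 TPM with rapamycin. In wild type with 1 µM rapamycin, where ACO1 stood higher, that sum was 214.6 to 243.0 TPM in mock and 215.5 to 301.9 TPM with rapamycin, and with 100 nM, where ACO1 stood lower, 190.1 to 230.7 and 147.0 to 167.1 TPM. Of the 11 tested hypoxia genes, 9 stood above mock in wild type with 1 µM (median log2 fold change 0.11). All 11 stood below mock in wild type with 100 nM (median -0.49), and neither wild type had a call. Of all genes, 43.2% and 48.3% stood above mock there. In the RGI5 line 10 of the 11 hypoxia genes stood below mock without a call (median -0.35). Their sums were 126.0 to 241.8 TPM in mock and 132.2 to 171.2 TPM with rapamycin, while ACO1 had means of 46.6 and 46.7 TPM. The part of hypoxia genes in the levels of ACO1 was not tested.

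The genes whose levels ran most like each gene were found by Pearson correlation of log2(TPM + 1) over the 30 libraries, each taken as its deviation from the mean of its set, among 19286 genes. These are descriptions, since libraries of a group share their treatment. For ACO1 the closest were the hemoglobin gene HB1 (r = 0.865), SBP2 (0.824) and the alcohol dehydrogenase gene ADH1 (0.819). For ERF5 they were AT4G36500 (0.856), WRKY45 (0.846) and GSH1 for the first enzyme of glutathione synthesis (0.832), and for ACO4 AT5G44380 (0.846), WRKY75 (0.833) and GSH1 (0.825). ERF6, despite its kinship with ERF5, had another set, GulLO2 (0.816), PGLCT (0.814) and AT2G26190 (0.804). The closest genes were BEH3 for ACS6 (0.788), LACS7 for ACS11 (0.78) and AT5G66390 for ACS2 (0.737).

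List counts of the RGI1 line under mock stand beside a large share of lower genes, as 14.5% of all genes were called lower and 24.1% stood above wild type. EIN4, EBF1 and XRN4 of perception and signalling were lower (3 of 16, with 14 of 16 below wild type), which is near that background. ACS12, XBAT32 and MPK6 were lower as well, and the ethylene output genes ERF1, EBP and ARGOS were higher (3 of 11, beside 2% of all genes). Their log2 fold changes lay between -0.37 (ACS12) and 0.62 (ARGOS). After median-ratio scaling the calls of EIN4, EBF1, XRN4, XBAT32 and MPK6 were lost (adjusted p 0.356, 0.0769, 0.123, 0.168 and 0.116), and each of the 9 was lost without at least 1 library. Of the higher genes, ERF1 kept its call in 1, EBP in 2 and ARGOS in 4 of 6 such fits. ERF1 was also lost with all 30 libraries fitted together (0.226), and EBP with replicate numbers as a block (0.0748). With rapamycin in both genotypes 3 of 16 signalling genes were lower in the RGI1 line, beside 6.15% of all genes, with EBF2, an F-box protein that removes EIN3, at 24.8 ± 1.83 against 33.5 ± 2.21 TPM (-0.42, limma adjusted p = 0.00531). The oxidase gene AT1G12010 was lower too, at 20.7 ± 2.3 against 33.3 ± 4.52 TPM (-0.66, adjusted p = 0.00372), as were RAV1 (-0.56), AT5G07580 (-0.63) and AT5G61590 (-0.88), and these 5 calls held under each setting and without each library. In the RGI5 line none of the pathway genes was called in its rapamycin response, and 15 of 16 signalling genes stood above mock (median 0.17), where 69% of all genes did.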

How the data were processed

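Per the labels, root RNA was sequenced in 30 stranded, polyA-selected libraries. The authors deposited TPM per transcript model, a unit read from the values, which sum to 1000000 in each column. The submitters' processing notes name Salmon and DESeq2 without role or version. Which transcript index and build were used is not given in the sources used here. Values of 40812 models were summed to 32753 genes, of which 32048 matched a TAIR10.1 table used for names alone. How the authors' tool divided reads among close paralogs is uncertain.

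Levels were tested with limma 3.58.1 in R 4.3.3 on log2(TPM + 1) with an intensity trend. There were 13 comparisons, 11 in fits of a single set and 2 in a fit of all libraries. Genes at 1 TPM in at least 3 libraries of a fit were tested, with Benjamini-Hochberg adjustment over all of them and a call at 0.05. The tests were tried on simulated data. No pair of libraries was identical.

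The 9 genes and the lists were chosen with earlier results of these data known. Values are given for the 9 genes throughout, for up to 4 called genes of a list and for the 3 genes of highest correlation. The alternatives were a pseudocount of 0.1, no filter, median-ratio scaling, all 30 libraries in 1 fit, replicate numbers as a block, and each library left out. Columns of wild type in the RGI1 set were matched to titles by elimination. A further gene of the pathway is not reported here.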

Additional observations from a re-analysis of the deposited data

Results flagged for a closer look

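Both results were picked out because the response to rapamycin differed between the RGI1 line and its wild type in a test of the difference itself. For ACO1 the difference of responses was -0.65 on the log2 scale. ACO1 fell in the line, from 50.7 to 37.3 TPM, and stood at 40.6 and 47.5 TPM in wild type, with all 3 treated libraries on opposite sides of mock in the 2 genotypes. Under mock ACO1 was already higher in the line than in wild type (log2 fold change 0.31). For ERF5 the difference of responses was 0.42, from a rise of 23.1 to 32.7 TPM in the line beside 24.1 and 25.4 TPM in wild type, and the genotypes overlapped under mock.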

How the results depend on the processing

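Counts of called genes among the 9 genes changed as follows. With all 30 libraries in 1 fit, 3 became 1 in the RGI1 line response (ERF5), 3 became 1 in the RGI1 line against wild type under mock (ACS11), 2 became 1 with rapamycin (ERF5), 2 became 0 in the RGI1 line response minus the wild-type response, and 0 became 2 in the RGI5 line against wild type with rapamycin. Without a filter, 3 became 4 in the RGI1 line response (ACS11, 0.045). Median-ratio scaling left 1 of 2 in the RGI1 line against wild type with rapamycin. Without 1 library the counts ran from 2 to 3 in the first and second of these comparisons, from 1 to 2 in the RGI1 line response minus the wild-type response, and from 0 to 1 in the RGI1 line response minus the RGF1 response. Some uncalled values changed sign: with RGF1, ACO4 was 0.014 after median-ratio scaling, and without 1 library ACO1 ran from -0.099 to 0.16, ACO4 from -0.13 to 0.055 and ERF5 from -0.023 to 0.13. In the RGI5 line response ACO1 was -0.052 after median-ratio scaling and -0.13 to 0.091 without 1 library. ERF5 in the RGI1 line under mock was 0.04 after median-ratio scaling. ACO1 in the RGI5 line under mock ran from -0.21 to 0.013, and ACO4 in the RGI5 minus the RGI1 response from -0.19 to 0.09. Of 52 further values 18 changed sign in at least 1 setting (largest size 0.19) and 0 were called in any. Calls of pathway and marker genes that held under all settings were 2 of 9 in the RGI1 line response, 2 of 19 and 8 of 20 in the RGI1 line against wild type under mock and rapamycin, 0 of 3 in its response minus the wild-type response, and 0 of 1 in the RGI5 line against wild type under each. Causes were not tested.

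Replicate numbers were checked as pairs. Median correlations of deviations were 0.06, 0.0395 and 0.0256 for same-numbered libraries in the RGI1, RGI5 and RGF1 sets. Other pairs had -0.0188, 0.0129 and -0.04. Ranges overlapped, so pairing was not settled. With the replicate block the RGI1 line response minus the wild-type response had 0 of 2 calls left (ACO1 0.0567, ERF5 0.111), ACO4 and AT5G07580 in the RGI1 line response had 0.063 and 0.0503, ACO1 with RGF1 was -0.17, and calls over all genes in the RGI1 line response went from 796 to 431. The block also gave 6 calls in place of 27 with RGF1, 15 in place of 86 and 10 in place of 22 in the RGI5 line against wild type under mock and rapamycin, 918 in place of 1580 in the RGI1 line against wild type with rapamycin, 55 in place of 245 in the RGI1 line response minus the wild-type response, 0 in place of 82 in the RGI1 minus the RGF1 response and 1 in place of 4 in the RGI5 minus the RGI1 response.

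Counts over all genes also moved. All 30 libraries in 1 fit gave 167 calls with RGF1, 362 in the RGI1 line response, 75 in that of the RGI5 line, 628 and 663 in the RGI5 line against wild type under mock and rapamycin, 986 in the RGI1 line against wild type with rapamycin, 28 in the RGI1 line response minus the wild-type response and 127 in that of the RGI5 line. The main counts were 27, 796, 0, 86, 22, 1580, 245 and 0. Wild type with rapamycin had 1 call at 1 µM (main 0) and 0 at 100 nM (main 1). Without a filter the calls were 6 with RGF1, 6 in the RGI5 line against wild type under mock and 6 with rapamycin, 150 in the RGI1 line response minus the wild-type response and 10 in the RGI5 minus the RGI1 response (main 4, and 12 with a pseudocount of 0.1). Median-ratio scaling gave 1712 in the RGI1 line against wild type under mock (main 3239), 32 in the RGI1 minus the RGF1 response (main 82) and 1 in wild type with 1 µM. At 100 nM a pseudocount of 0.1 gave 0. Without 1 library the counts ran from 0 to 23 with RGF1, from 402 to 695 in the RGI1 line response, from 1559 to 2826 and 905 to 1659 in the RGI1 line against wild type under mock and rapamycin, from 116 to 258 in the RGI1 line response minus the wild-type response, and from 13 to 156 in the RGI1 minus the RGF1 response. For the RGI5 line they ran from 7 to 181 and 6 to 84 against wild type, 0 to 48 for its response minus the wild-type response and 2 to 20 for its response minus that of RGI1.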

Other observations

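Under mock, where ERF6 was lower in the RGI1 line, 3 of the 5 genes reported as its targets were lower too, beside 14.5% of all genes: WRKY33, STZ and GA2OX6. The other 2 of the 5 stood above wild type without a call. WRKY33 stood at 10.5 ± 0.388 TPM in the line and 14.2 ± 0.869 TPM in wild type (n = 3, log2 fold change -0.40, limma adjusted p = 0.00652), and lost its call with all 30 libraries fitted together (0.103). STZ, a zinc finger repressor, had a log2 fold change of -0.40 (adjusted p = 0.0371). GA2OX6, which inactivates gibberellins, stood at 27.6 ± 1.3 against 31.6 ± 1.12 TPM (-0.19, adjusted p = 0.0245). STZ and GA2OX6 each kept their calls in 2 of 6 fits with a library dropped. Of the 5 other settings STZ lost its call in 4 and GA2OX6 in 3, median-ratio scaling among them (0.141 and 0.346). With rapamycin in both genotypes WRKY33 was at 14.2 ± 1.24 and 13.4 ± 1.3 TPM. The part of ERF6 in these levels was not tested.

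In the RGI5 line 1 of the 8 tested touch and wound genes was called against wild type, WRKY40, a defence regulator. Of all genes 0.438% were called under mock and 0.112% with rapamycin. WRKY40 stood at 5.17 ± 0.835 against 2.83 ± 0.203 TPM under mock (log2 fold change 0.68, limma adjusted p = 0.0341) and at 6.01 ± 0.339 against 3.05 ± 0.41 TPM with rapamycin (0.79, adjusted p = 0.0337). Each call held in 1 of 6 fits with a library dropped (0.151 and 0.15 at most, when wild-type mock replicate 3 and rapamycin-treated line replicate 3 were dropped). In the RGI1 line TCH3, a calmodulin-like touch gene, was lower than wild type under mock (-0.51, adjusted p = 0.034) and with rapamycin (-0.64, adjusted p = 0.0193), and CML38, also calmodulin-like, was lower with rapamycin (-0.47, adjusted p = 0.0271). These 3 calls were also lost in at least 4 of 6 such fits. TCH3 was 1 call among 8 tested touch and wound genes under mock, where 14.5% of all genes were called lower. With rapamycin in both genotypes that share was 6.15%.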
